A study of Mus musculus with 5 samples.

Results

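Day 4 progenitors with a strong interferon response were the cells of the day 4 library in which the summed UMIs (unique molecular identifiers, each counted as 1 transcript) of Isg15, Ifit1, Ifit3, Irf7 and Cxcl9 reached at least 15 per 10000 UMIs of the cell. They were 535 of the 3810 day 4 cells kept, and of 17213 barcodes in the 5 libraries. To be kept, a cell needed 500 or more detected genes and no more than 10% mitochondrial UMIs. Cells with 5 or more summed UMIs of the tenocyte genes Tnmd, Fmod, Kera and Chad or of the mural cell genes Rgs5, Kcnj8, Abcc9 and Higd1b were excluded as tenocyte or mural cells. The members' other genes are described against the 2330 kept day 4 cells below 5 per 10000, and 945 cells lay between. The 5 genes chose the members, so their own values describe the choice. The same cells and counts enter every other difference between members and comparison cells, and there is 1 library, so no test was made and every interval covers counting error only.

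The libraries came from whole hindlimb muscle of C57BL/6J mice at day 1, day 2, day 4 and day 14 after injury with notexin, a snake venom phospholipase that destroys muscle fibres, and from quiescent muscle. In all 5, the genotype was given as Hic1CreERT2/CreERT2;Rosa26LSLtdTomato/+, so that tamoxifen switches on the red fluorescent protein tdTomato in cells that express Hic1, a transcriptional repressor of mesenchymal progenitors, and in their descendants. As labelled, both copies of Hic1 carry the CreERT2 insertion in every library, quiescent included. Every mouse, quiescent ones included, had received 2.5 mg of tamoxifen in 100 uL of oil a day for 5 days from 8 weeks of age, followed by 10 days of washout. Sorted cells were run on 10x Chromium with version 2 of the 3' chemistry. How many mice went into a library is not given in the sources used here.

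Interferons are secreted proteins that warn cells of infection or damage. Type I interferons act through the receptor pair Ifnar1 and Ifnar2 and a transcription factor complex that holds Stat2 and Irf9 and binds the interferon-stimulated response element (ISRE), while interferon-gamma acts through Ifngr1 and Ifngr2 and the gamma-activated site (GAS). The induced genes encode antiviral effectors, nucleic acid sensors, guanosine triphosphatases (GTPases) that act on membranes of intracellular parasites, and the machinery that presents peptides on major histocompatibility complex (MHC) class I molecules. Interferon-gamma is made mainly by T cells and natural killer cells, and after muscle injury fibroblast-like progenitors share the tissue with infiltrating immune cells.

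Of the day 4 cells kept, 14.0% were members (95% exact binomial interval 13.0 to 15.2%). By the same rule, 0.947% of quiescent cells (0.562 to 1.49), 3.17% at day 1 (2.68 to 3.73), 1.25% at day 2 (0.842 to 1.77) and 1.61% at day 14 (1.15 to 2.19) qualified. In cell numbers these were 18 of 1900 quiescent cells, 144 of 4536 at day 1, 30 of 2407 at day 2 and 39 of 2424 at day 14. The day 4 share stood apart from the other 4, whose highest was day 1, and with 1 library per time the spread between animals is unknown. With each cell thinned to 2500 UMIs the shares were 0.927, 3.31, 1.54, 17.0 and 1.83% in time order, with 390, 65, 0, 63 and 398 cells too shallow to thin.

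**Figure D1:**
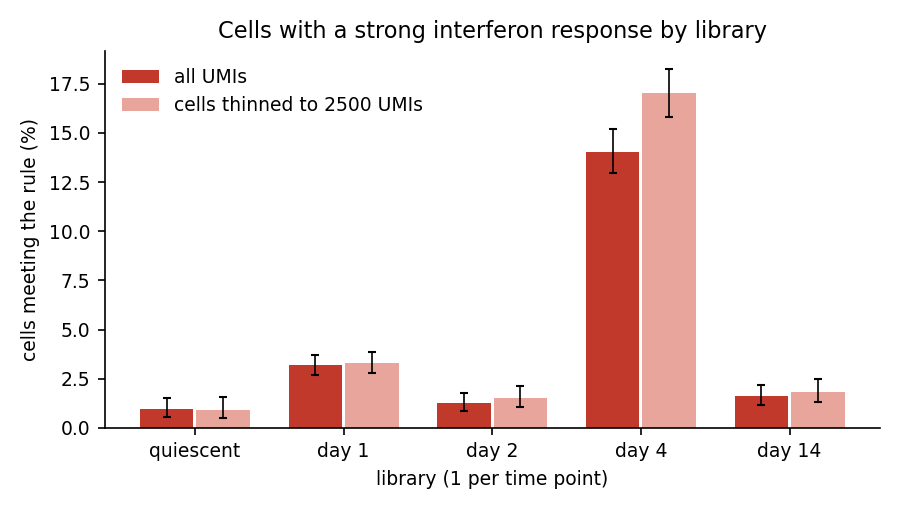
Share of kept cells with at least 15 UMIs of the 5 genes per 10000 (y axis, percent) in each of the 5 libraries (x axis), with all UMIs and after thinning each cell to 2500 UMIs; error bars are exact binomial 95% intervals. The day 4 bars, at 14.0% and 17.0%, are above the other libraries, which lie between 0.927% and 3.31%.

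The summed level of the 5 genes had no gap at the threshold. Its median was 24.1 per 10000 in members, with a range of 15.02 to 193, and 1.11 in the comparison cells. The members nearest the threshold were at 15.02, the nearest cells outside it at 14.92 and 14.90, and 116 members lay between 15 and 18 against 175 cells between 12 and 15. The class is therefore a range of a continuous level, and 70 members were above 50. Members were deeper than the comparison cells, with a median of 9109 against 6059.5 UMIs and 2760 against 2094.5 genes, and the median mitochondrial share was 2.54% against 2.55%. Of the members' barcodes, 6 also occurred in another library, as did 65 of all 4140 day 4 barcodes.

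**Figure D2:**
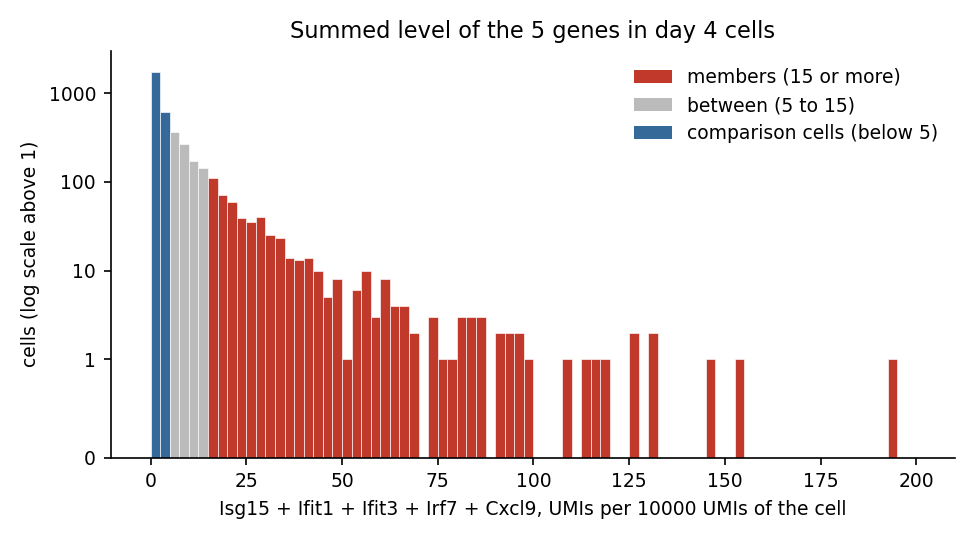
Number of day 4 cells (y axis, log scale above 1) by summed UMIs of Isg15, Ifit1, Ifit3, Irf7 and Cxcl9 per 10000 UMIs of the cell (x axis), in bars 2.5 wide. The 2330 comparison cells are below 5, the 945 cells between run up to 15, and the 535 members reach 193 without a break at 15.

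Isg15, a ubiquitin-like modifier that is attached to other proteins, gave the largest share of the members' 16015 UMIs of the rule, 33.4%. Irf7, a transcription factor of type I interferon genes, gave 19.8% and Ifit3 18.4%. Ifit1, which binds foreign RNA, gave 14.4%, and Cxcl9, a chemokine that draws T cells, 14.0%. Isg15 was the leading gene in 251 members, Irf7 in 117, Cxcl9 in 63, Ifit3 in 57 and Ifit1 in 47, with ties given to the gene earlier in the order Isg15, Ifit1, Ifit3, Irf7, Cxcl9. At least 4 of the 5 genes were detected in most members, with all 5 in 159, 4 in 236, 3 in 107 and 2 in 33. Over all kept cells, Cxcl9 stood at 4.51, 8.62, 2.53, 105 and 3.13 CPM (UMIs of the gene per 1000000 UMIs of the group) in time order, and Isg15 at 24.6, 84.4, 27.2, 298 and 54.3 CPM. Both were thus highest at day 4.

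Among 2907 genes with at least 50 CPM in 1 of the groups, the rule genes left out, 89 were at least 2-fold higher in members (3.06% of genes, the background for the counts below) and 79 at least 2-fold lower (2.72%). Of the 89, 51 belonged to the interferon and antigen presentation lists and 38 to none of them, and 0 of the 79 lower genes belonged to them. The share of these lists among the 2907 genes was not counted, so 51 and 0 have no background here. Counts by list, with the genes compared in each, follow below. The lists do not hold every gene that interferon can induce, and the chemokines Cxcl10, Ccl5 and Ccl19 are among the 38. The median log2 ratio over the 9663 genes with at least 5 CPM was 0.02. At that lower minimum, 296 genes (3.06%) were higher and 294 (3.04%) lower.

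The ISRE and the GAS are the sequences through which interferons act. Promoters are shown for 7 genes chosen after their matches were seen, because each holds an ISRE match, and for the higher genes Ifi47 and H2-Q7, which hold none. The 300 bases run from 250 before to 50 after the start of each gene, from RefSeq on GRCm38.p6, 5' to 3' on the gene's strand. Capitals mark matches on either strand to the ISRE core (GAAA, any 2 bases, GAAA) and the GAS letters TTCNNNGAA, where matches may overlap.
Isg15, chr4:156200769-156201068, minus strand: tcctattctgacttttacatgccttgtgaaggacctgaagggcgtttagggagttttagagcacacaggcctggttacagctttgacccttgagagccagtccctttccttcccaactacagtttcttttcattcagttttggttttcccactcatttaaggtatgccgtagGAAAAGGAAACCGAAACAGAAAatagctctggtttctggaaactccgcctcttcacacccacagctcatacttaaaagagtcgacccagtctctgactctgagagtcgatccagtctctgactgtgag
Ifit3, chr19:34583279-34583578, plus strand: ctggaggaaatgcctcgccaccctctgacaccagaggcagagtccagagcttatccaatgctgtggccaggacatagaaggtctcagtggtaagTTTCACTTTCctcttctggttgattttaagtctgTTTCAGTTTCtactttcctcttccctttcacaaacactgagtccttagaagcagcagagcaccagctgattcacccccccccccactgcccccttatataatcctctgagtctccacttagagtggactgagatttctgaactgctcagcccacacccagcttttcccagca
Rsad2, chr12:26456403-26456702, minus strand: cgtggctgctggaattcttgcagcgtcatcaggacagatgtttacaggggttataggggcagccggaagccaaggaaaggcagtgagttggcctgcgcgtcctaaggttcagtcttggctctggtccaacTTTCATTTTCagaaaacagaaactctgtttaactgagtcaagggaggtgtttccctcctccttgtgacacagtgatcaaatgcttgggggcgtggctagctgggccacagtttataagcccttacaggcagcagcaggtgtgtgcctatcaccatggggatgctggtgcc
Oas1a, chr5:120907476-120907775, minus strand: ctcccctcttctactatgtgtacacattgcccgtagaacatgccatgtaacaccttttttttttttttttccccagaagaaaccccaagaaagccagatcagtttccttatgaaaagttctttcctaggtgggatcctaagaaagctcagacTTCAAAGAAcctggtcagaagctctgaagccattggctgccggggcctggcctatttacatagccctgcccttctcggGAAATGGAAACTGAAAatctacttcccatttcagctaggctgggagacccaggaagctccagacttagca
Cxcl10, chr5:92348840-92349139, minus strand: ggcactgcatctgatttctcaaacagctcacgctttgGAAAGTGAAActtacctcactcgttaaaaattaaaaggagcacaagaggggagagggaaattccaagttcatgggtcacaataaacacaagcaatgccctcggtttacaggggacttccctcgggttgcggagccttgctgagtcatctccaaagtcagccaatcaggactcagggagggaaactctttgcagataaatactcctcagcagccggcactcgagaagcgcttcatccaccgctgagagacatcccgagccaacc
Gbp7, chr3:142530086-142530385, plus strand: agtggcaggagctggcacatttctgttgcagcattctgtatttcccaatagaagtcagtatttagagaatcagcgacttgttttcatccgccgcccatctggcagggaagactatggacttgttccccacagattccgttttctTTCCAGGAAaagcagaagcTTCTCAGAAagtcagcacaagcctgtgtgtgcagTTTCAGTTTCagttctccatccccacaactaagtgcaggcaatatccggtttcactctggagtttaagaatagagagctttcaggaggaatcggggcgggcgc
B2m, chr2:122147437-122147736, plus strand: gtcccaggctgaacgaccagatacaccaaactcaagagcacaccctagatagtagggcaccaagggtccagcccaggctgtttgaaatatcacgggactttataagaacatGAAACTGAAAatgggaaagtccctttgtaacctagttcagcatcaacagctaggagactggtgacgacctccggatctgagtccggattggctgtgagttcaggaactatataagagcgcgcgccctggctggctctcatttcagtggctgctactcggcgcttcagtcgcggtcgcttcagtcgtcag
Ifi47, chr11:49076337-49076636, plus strand: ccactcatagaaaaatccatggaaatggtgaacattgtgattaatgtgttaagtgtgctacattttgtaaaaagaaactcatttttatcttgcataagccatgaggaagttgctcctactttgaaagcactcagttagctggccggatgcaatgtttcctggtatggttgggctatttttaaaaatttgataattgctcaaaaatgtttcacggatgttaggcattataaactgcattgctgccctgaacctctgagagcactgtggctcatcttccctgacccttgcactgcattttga
H2-Q7, chr17:35438905-35439204, plus strand: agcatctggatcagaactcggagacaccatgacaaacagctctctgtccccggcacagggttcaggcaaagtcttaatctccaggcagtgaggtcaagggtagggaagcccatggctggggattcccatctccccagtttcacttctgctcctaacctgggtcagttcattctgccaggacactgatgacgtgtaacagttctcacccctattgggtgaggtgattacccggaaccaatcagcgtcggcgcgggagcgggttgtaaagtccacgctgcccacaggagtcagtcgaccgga

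In Isg15 the 3 ISRE matches overlap, beginning 78, 72 and 66 bases before the gene's start. Ifit3 holds 2, beginning 156 and 122 bases before it, and Rsad2 holds 1 at 120 bases. Oas1a has 2 overlapping ISRE matches at 20 and 14 bases and a GAS match at 98 bases, and Gbp7 an ISRE match at 53 bases and GAS matches at 106 and 87 bases. Cxcl10 and B2m hold 1 ISRE match each, at 213 and 139 bases. Of the 89 higher genes, 66 had a promoter in the table, and the ISRE core occurred in 27 of them (40.9%). The other 39 did not hold it in this window, Ifi44, Ifi47, H2-Q7 and Tap1 among them. It occurred in 3 of 53 lower genes (5.66%) and in 120 of 2228 genes with at least 50 CPM (5.39%). The GAS letters occurred in 8 of the 66 higher genes (12.1%), 3 of the 53 lower genes (5.66%) and 196 of the 2228 genes (8.80%). Over all 32851 promoters of the table, 3.44% held the ISRE core and 8.30% the GAS letters. A match describes the letters only, and a promoter without one can hold a related site elsewhere.

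Antiviral effectors were the largest group among the higher genes. Of the 36 interferon-induced effectors with at least 50 CPM, 26 were at least 2-fold higher in members and 0 lower, and at a minimum of 5 CPM 49 of 63 were higher, with a median log2 ratio of 1.498. Rsad2, viperin, which makes a chain-terminating nucleotide, had 74.8 CPM in members and 2.81 CPM in comparison cells, 26.6-fold (19.5 to 36.9) higher. Ifi44, a cytoplasmic interferon-induced protein, had 71.7 and 3.73 CPM, 19.2-fold (14.6 to 25.6) higher in members. Ifit3b, the near copy of Ifit3, was 22-fold (17.2 to 28.6) higher, but reads of the pair may be split between them. Rsad2 UMIs were in 129 members, and 42.6% of them in the 10 cells with most.

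Other effectors had smaller ratios. Oas1a, an oligoadenylate synthase that activates RNA decay, had 115 CPM in members and 16.8 CPM in comparison cells, 6.84-fold (5.92 to 7.92) higher, though its close paralogs can share reads. Oasl2, an oligoadenylate synthase-like protein, was 4.99-fold (4.57 to 5.44) higher, Phf11d 5.31-fold (4.84 to 5.83) and Rtp4 4.33-fold (4.02 to 4.66). Usp18, the protease that removes Isg15 from its targets and restrains the type I receptor, had 152 and 33.6 CPM, 4.52-fold (4.05 to 5.05) higher in members. Bst2, tetherin, which holds budding virus at the cell surface, was the most abundant of those named, with 1366 CPM in members and 396 CPM in comparison cells, 3.45-fold (3.33 to 3.57) higher. With each cell thinned to 2500 UMIs, Bst2 was detected in 89.8% of 529 members and 52.3% of 2279 comparison cells, and in 61.7% of 107 excluded mural and 66.3% of 181 excluded tenocyte cells. The median UMIs before thinning were 9185, 6131, 4203 and 7012 in that order.

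GTPases that interferon-gamma is known to induce were higher in members in every case with at least 5 CPM. At 50 CPM all 7 were at least 2-fold higher in members, and at 5 CPM all 12, with a median log2 ratio of 2.20. All 7 reached 50 CPM in members only, with 11.99 (Ifi47) to 37.4 CPM (Gbp2) in comparison cells. The minimum itself thus favoured the higher side, and for the lowest of them fixed it. Iigp1, an immunity-related GTPase that attacks parasite vacuoles, had 374 CPM in members and 33.7 CPM in comparison cells, 11.1-fold (10.1 to 12.3) higher. After thinning to 2500 UMIs, Iigp1 was detected in 46.9% of members and 5.70% of comparison cells, and in 25.2% of the excluded mural and 13.8% of the excluded tenocyte cells. Ifi47 had 118 and 11.99 CPM, 9.87-fold (8.39 to 11.7) higher in members, and Igtp 107 and 14.9 CPM, 7.18-fold (6.16 to 8.38) higher. The guanylate-binding proteins Gbp7, Gbp3 and Gbp2 were 4.90-fold (4.24 to 5.66), 4.64-fold (4.12 to 5.21) and 4.35-fold (3.92 to 4.84) higher. They lie side by side on chr3:142530342-142638008 and resemble each other, so reads may be shared. Other genes that interferon-gamma induces, MHC class II genes among them, differed less. Of 4 in that list with at least 50 CPM, 0 were at least 2-fold higher or lower. At 5 CPM 3 of 7 were higher and 0 lower, with a median log2 ratio of 0.34. The 19 genes of the list summed to 2498 CPM in members and 2578 CPM in comparison cells.

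MHC class I genes were abundant, with 13 genes summing to 9261 CPM in members and 3805 CPM in comparison cells. Of 9 with at least 50 CPM, 8 were at least 2-fold higher in members and 0 lower, with a median log2 ratio of 1.32. B2m, the light chain shared by all class I molecules, had 5585 CPM in members and 2232 CPM in comparison cells, 2.50-fold (2.46 to 2.54) higher. H2-Q7, a nonclassical heavy chain, had 141 and 13.7 CPM, 10.3-fold (8.86 to 12.03) higher in members, and its near copy H2-Q6 was 10.2-fold (7.87 to 13.4) higher. H2-Q4 and H2-T22 were 3.15-fold (2.82 to 3.52) and 2.64-fold (2.45 to 2.83) higher. The classical heavy chains H2-K1 and H2-D1, named after their values were seen, were 2.50-fold and 2.02-fold higher.

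Peptide supply differed by step. The 3 immunoproteasome catalytic subunits were higher in members, Psmb9 3.42-fold (3.03 to 3.86), Psmb8 3.18-fold (2.98 to 3.39) and Psmb10 2.11-fold (1.97 to 2.26). Their constitutive counterparts Psmb6, Psmb5 and Psmb7 had ratios of 1.05 (1.00 to 1.11), 0.937 (0.880 to 0.997) and 1.12 (1.04 to 1.196), and 0 of 8 constitutive proteasome genes was 2-fold different. The activator subunits Psme1 and Psme2 had ratios of 1.57 (1.47 to 1.68) and 1.35 (1.27 to 1.43). Of 6 peptide loading genes only Tap1, one chain of the peptide transporter, passed 2-fold, with 121 CPM in members and 24.8 CPM in comparison cells, 4.88-fold (4.30 to 5.55) higher. Its partner Tap2 had 112 and 60.3 CPM, a ratio of 1.85 (1.67 to 2.06), and the loading factor Tapbp a ratio of 1.68 (1.60 to 1.77). Psmb8, Psmb9, Tap1 and H2-K1 lie within chr17:33996017-34201454, and H2-D1, H2-Q4, H2-Q7 and H2-Q10 within chr17:35262730-35474563.

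Sensors and signalling genes were higher in part. Of 11 nucleic acid sensors, 6 were at least 2-fold higher in members and 0 lower. Zbp1, which binds left-handed nucleic acid and can start necroptosis, had 254 CPM in members and 58.1 CPM in comparison cells, 4.37-fold (4.02 to 4.76) higher. The RNA helicases Dhx58, Ifih1 and Ddx58 were 5.81-fold (4.82 to 7.02), 3.59-fold (3.14 to 4.10) and 2.82-fold (2.42 to 3.29) higher. Mlkl, the membrane-breaking effector of necroptosis, was 2.27-fold (1.95 to 2.65) higher, and Ripk3, its kinase, had a ratio of 1.55 (1.32 to 1.83).

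Of 9 receptor and signalling genes, 4 were at least 2-fold higher. Among them, Stat2 had 75.04 CPM in members and 28.9 CPM in comparison cells, 2.60-fold (2.26 to 2.98) higher, and Irf9 had 92.0 and 43.7 CPM, 2.11-fold (1.87 to 2.37) higher. Both stand in the list of effectors too, as does Usp18. The receptors differed less. Ifnar1 had 36.5 and 30.04 CPM, a ratio of 1.22 (1.02 to 1.44), Ifnar2 1.23 (0.919 to 1.64), Ifngr1 277 and 302 CPM, 0.915 (0.862 to 0.971), and Ifngr2 0.870 (0.662 to 1.13). Irf1, an early transcription factor downstream of interferon-gamma, had 67.6 and 53.2 CPM, a ratio of 1.27 (1.12 to 1.44). None of the 21 interferon genes listed had a UMI in members, and they had 3 UMIs in comparison cells and 6 in all day 4 barcodes. At the members' 5117461 summed UMIs, a count of 0 allows up to 0.586 CPM for the sum of these genes.

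Chemokines were uneven from cell to cell. Cxcl10, which like Cxcl9 binds the chemokine receptor Cxcr3 of T cells, had 240 CPM in members and 19.0 CPM in comparison cells, 12.6-fold (11.1 to 14.3) higher. It was found in 91 members, and the 10 with most held 52.6% of its UMIs. Ccl5, another lymphocyte chemokine, had 150 and 12.2 CPM, 12.4-fold (10.6 to 14.5) higher in members, but it was in only 19 members, 10 of which held 98.8% of the UMIs and 1 of which held 420 of 770. Ccl19, a ligand of the lymphoid homing receptor Ccr7, was 3.704-fold (3.10 to 4.42) higher. Cxcl12, a retention signal for many blood cells, was in 483 members, with 1333 and 723 CPM and a ratio of 1.84 (1.79 to 1.90). The neutrophil chemokine Cxcl1 had 234 and 334 CPM, a ratio of 0.702 (0.659 to 0.747).

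**Figure D3:**
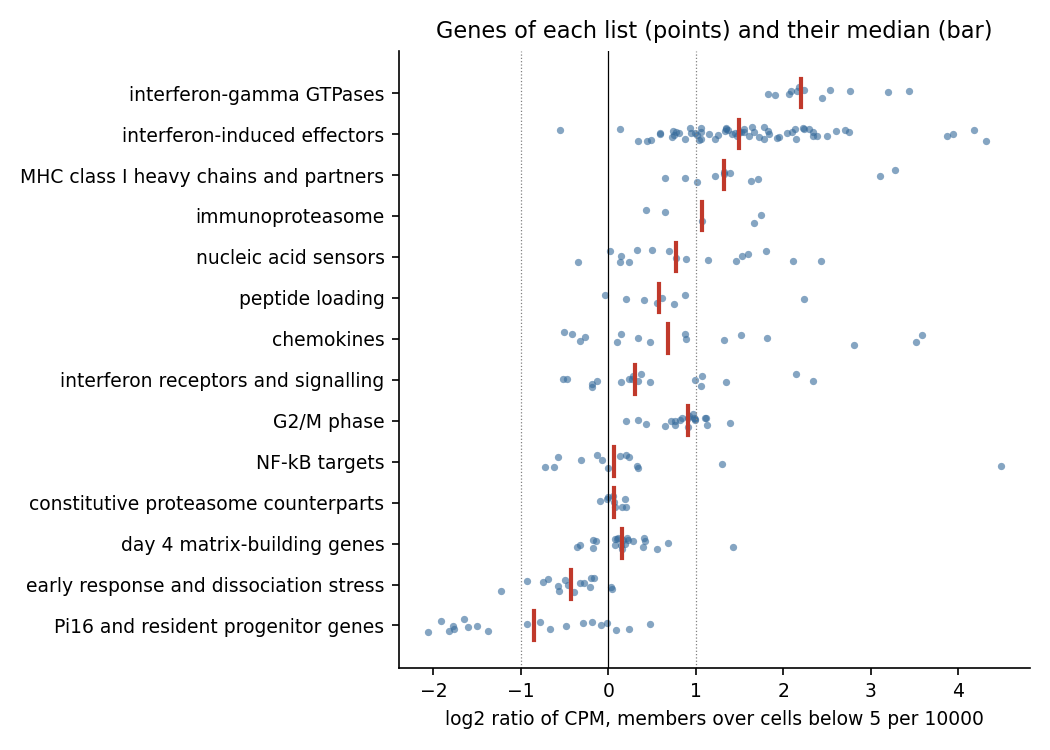
Log2 ratio of CPM in members over comparison cells (x axis) for each gene of 14 lists with at least 5 CPM (points), with the list median (bar); dotted lines mark 2-fold either way and vertical scatter has no meaning. Points of the interferon-gamma GTPases all lie above 1, and most effectors do, while constitutive proteasome genes cluster at 0 and the Pi16 and resident progenitor genes have the lowest median, -0.85.

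Inflammatory genes outside the interferon lists were mixed. Among 6 NF-kB targets at 50 CPM, 2 were at least 2-fold higher and 0 lower, and the list median log2 ratio was 0.07. Vcam1, an adhesion molecule for leukocytes, had 216 CPM in members and 87.1 CPM in comparison cells, 2.48-fold (2.29 to 2.69) higher. Saa3, an acute-phase amyloid protein, had 90.3 and 3.06 CPM, 29.5-fold (22.01 to 40.3) higher in members, but 10 of the 27 members with it held 95.2% of the UMIs. Hp, haptoglobin, had 284 and 45.9 CPM, 6.19-fold (5.67 to 6.77) higher, and was in 140 members. The 10 members with most Hp held 39.9% of its UMIs in members. In comparison cells the 10 with most held 57.1%, and 1 cell held 197 of 750. Of 10 complement genes at 50 CPM, 2 were at least 2-fold higher and 1 lower, with a median log2 ratio of 0.07. C2 and Cfb were 2.50-fold (2.18 to 2.87) and 2.39-fold (2.19 to 2.62) higher. C3, on which the complement pathways converge, had 227 and 399 CPM, a ratio of 0.569 (0.535 to 0.606), and a log2 ratio of 0.14 with comparison cells weighted to the Pi16 tertiles. Cd55, an inhibitor of complement, was 3.80-fold (3.38 to 4.29) lower. Nfkbia, the inhibitor of NF-kB, had a ratio of 0.648 (0.614 to 0.683). Over the alternative settings listed under the processing, the log2 ratio of Cd55 ran from -2.01 to -0.48 and that of Nfkbia from -0.77 to -0.07.

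Early response and dissociation stress genes had a median log2 ratio of -0.43, with 1 of 15 at least 2-fold lower and 0 higher. That gene, Atf3, a stress-induced transcription factor, had 128 CPM in members and 302 CPM in comparison cells, 2.36-fold (2.17 to 2.56) lower. Unfolded protein response and ribosome biogenesis genes had 0 of 11 and 0 of 7 past 2-fold.

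Of 8 progenitor markers at 50 CPM, 0 were at least 2-fold higher in members and 1 lower. tdTomato had 860 CPM in members and 978 CPM in comparison cells, Pdgfra, a progenitor receptor, 184 and 195 CPM, Ly6a, encoding the surface protein Sca-1, 2752 and 2582 CPM, and Hic1 34.2 and 28.9 CPM. The ratios of these 4 lay between 0.879 and 1.18. Dcn, decorin, a proteoglycan of the matrix, had 8438 and 13364 CPM, a ratio of 0.631 (0.625 to 0.638). The gene past 2-fold was Cd34, a surface sialomucin, with 443 and 1149 CPM, 2.59-fold (2.48 to 2.71) lower in members.

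Genes of Pi16-type and resident progenitors were lower. Of 17 in the list, 8 were at least 2-fold lower in members and 0 higher, with a median log2 ratio of -0.85. Pi16, a secreted peptidase inhibitor of a fibroblast progenitor state, had 711 CPM in members and 2974 CPM in comparison cells, 4.18-fold (4.05 to 4.33) lower. Gsn, gelsolin, which cuts actin filaments, had 5207 and 16329 CPM, 3.14-fold (3.10 to 3.18) lower, Sema3c, a guidance factor, was 3.56-fold (3.21 to 3.95) lower and Dpp4, a surface peptidase, 3.47-fold (2.95 to 4.11) lower. Outside the list, Myoc, myocilin, had 198 and 883 CPM, 4.46-fold (4.19 to 4.76) lower. Igfbp6, which binds insulin-like growth factor 2, had 999 and 3468 CPM, 3.47-fold (3.37 to 3.57) lower. Procr, the protein C receptor, had 51.6 and 215 CPM, 4.16-fold (3.67 to 4.74) lower, and the decoy chemokine receptor Ackr3 was 4.09-fold (3.604 to 4.66) lower.

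Members were unevenly spread over the progenitor states of day 4. They were 22.7% of cells (20.4 to 25.1) in the lower tertile of the summed Pi16, Dpp4, Cd55 and Efemp1 level, 14.5% (12.6 to 16.5) in the middle tertile and 4.96% (3.83 to 6.30) in the upper tertile, and 25.9, 19.1 and 6.08% after thinning. In the lower tertile of the summed Postn, Cthrc1, Tgfbi and Tnc level they were 6.06% of cells (4.81 to 7.52), in the middle tertile 14.4% (12.5 to 16.5) and in the upper tertile 21.7% (19.4 to 24.02). Pi16, Dpp4 and Cd55, used to group the cells, are themselves among the lower genes. With comparison cells weighted to the members' spread over the Pi16 tertiles, chosen after the data were seen, 75 genes were higher, 73 of them among the 89, and only 10 lower, 6 of them among the 79. With comparison cells weighted to the members' UMI deciles, 79 were higher, 77 of them among the 89, and 35 lower, 33 of them among the 79.

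Within the lower, middle and upper Pi16 tertiles, 62, 80 and 58 of the 89 higher genes were again at least 2-fold higher. Of the 79 lower genes, 9, 30 and 4 were again at least 2-fold lower. Of all 2913, 2894 and 2863 genes compared there, 67, 100 and 110 were higher and 15, 41 and 16 lower. Within the lower, middle and upper tertiles of the Postn, Cthrc1, Tgfbi and Tnc level, 64, 87 and 68 of the 89 were again higher. There, 3, 75 and 16 of the 79 were again lower. Of all 2889, 2940 and 2904 genes compared in these tertiles, 102, 141 and 74 were higher and 18, 93 and 23 lower. In the lower Pi16 tertile, Iigp1 had 383 CPM in 288 members and 52.8 CPM in 551 comparison cells, and in the upper tertile 367 CPM in 63 members and 18.7 CPM in 1001 comparison cells. Bst2 was 2.78-fold (2.64 to 2.93), 3.71-fold (3.51 to 3.92) and 3.47-fold (3.14 to 3.84) higher in the lower, middle and upper tertiles. Procr had 24.02 and 23.9 CPM in the lower tertile, where Cd55 had 6.96 and 9.51 CPM. Myoc was lower in members in each tertile, 5.13-fold (4.39 to 6.02), 3.405-fold (3.08 to 3.77) and 1.59-fold (1.44 to 1.76), as was Igfbp6, 2.29-fold (2.14 to 2.46), 2.57-fold (2.44 to 2.71) and 1.25-fold (1.198 to 1.299). Cd34 was 1.76-fold (1.61 to 1.93), 2.14-fold (1.99 to 2.30) and 1.08-fold (1.01 to 1.16) lower.

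Genes of matrix-building fibroblasts differed little as a group. Of 21 in the list, 1 was at least 2-fold higher in members and 0 lower, with a median log2 ratio of 0.16. Postn, periostin, had 3104 CPM in members and 2360 CPM in comparison cells, a ratio of 1.32 (1.29 to 1.34), and a log2 ratio of -0.06 with comparison cells weighted to UMI deciles and -0.07 with Pi16 tertiles. Col1a1, a chain of type I collagen, had 8596 and 6417 CPM, a ratio of 1.34 (1.32 to 1.35). The gene past 2-fold was Spp1, osteopontin, with 3172 and 1176 CPM, 2.70-fold (2.64 to 2.75) higher. Spp1 was in 177 members, of which 10 held 62.9% of its UMIs, and within the upper Pi16 tertile it had 13.2 CPM in members and 47.0 CPM in comparison cells. Timp1, an inhibitor of matrix proteases, had 1530 and 609 CPM, 2.51-fold (2.44 to 2.59) higher, and was higher within the lower, middle and upper Pi16 tertiles by 1.43-fold (1.38 to 1.49), 2.92-fold (2.77 to 3.08) and 1.56-fold (1.29 to 1.88).

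Genes that go with Cxcl13 and Procr in day 4 cells were split. Of 7 at 50 CPM, Hp and Timp1 were higher in members, and Procr, Uap1, Ugdh and Has1, of which the last 3 serve hyaluronan synthesis, were lower by 4.16-fold, 2.86-fold, 2.73-fold and 2.08-fold. Members were 15.02% of the 233 cells with a Cxcl13 UMI (10.7 to 20.3) and 14.0% of the 3577 without (12.9 to 15.2). After thinning they were 10.7% and 17.3%, so the order was not stable to depth.

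Some mitotic genes were higher in members. Of 20 G2/M genes with at least 5 CPM, 7 were at least 2-fold higher and 0 lower, with a median log2 ratio of 0.92, and 1 of 5 at 50 CPM. That gene, Birc5, survivin, had 105 CPM in members and 52.1 CPM in comparison cells, 2.01-fold (1.80 to 2.24) higher, while without the cells holding at least 2 G2/M UMIs its log2 ratio was -0.25. Cenpe and Cenpf, which act at the centromere, were 2.74-fold (2.26 to 3.33) and 2.04-fold (1.71 to 2.42) higher, with log2 ratios of -0.52 and -0.36 without those cells. The list median was 0.30 and 0.32 with comparison cells weighted to the members' Pi16 tertiles and UMI deciles. Over all settings it ran from 0.30 to 1.36. Members were 23.4% of the 475 cells with at least 2 G2/M UMIs (19.6 to 27.4) and 12.7% of the 3335 others (11.6 to 13.9), and 30.5% and 15.99% after thinning. Birc5 was highest in the lower part of the members' range, since it stood at 52.1, 69.2, 129 and 55.8 CPM in cells below 5, from 5 to 15, from 15 to 30 and at 30 or more per 10000. S phase genes had 0 of 2 past 2-fold. The cyclin-dependent kinase inhibitor Cdkn1a was 2.55-fold (2.27 to 2.88) lower in members.

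Across those 4 bands of 2330, 945, 353 and 182 cells, 72 of the 89 higher genes were ordered from the lowest band to the highest, and 44 of the 79 lower genes in the opposite order. The bands at the ends were used to choose the genes, so the order there is given as a description. Bst2 had 396, 848, 1252 and 1597 CPM and B2m 2232, 4077, 5519 and 5720 CPM. Both were already higher in the cells between 5 and 15, which are no members. Cxcl10 had 19.0, 29.5, 35.8 and 655 CPM and Rsad2 2.81, 8.14, 22.7 and 181 CPM, so that most of their difference lay in the 182 cells of the highest band. Over all members, the 10 cells with most held 52.6% of the Cxcl10 UMIs and 42.6% of the Rsad2 UMIs. Pi16 had 2974, 1330, 689 and 755 CPM, and most of its difference lay below the members' threshold.

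**Figure D4:**
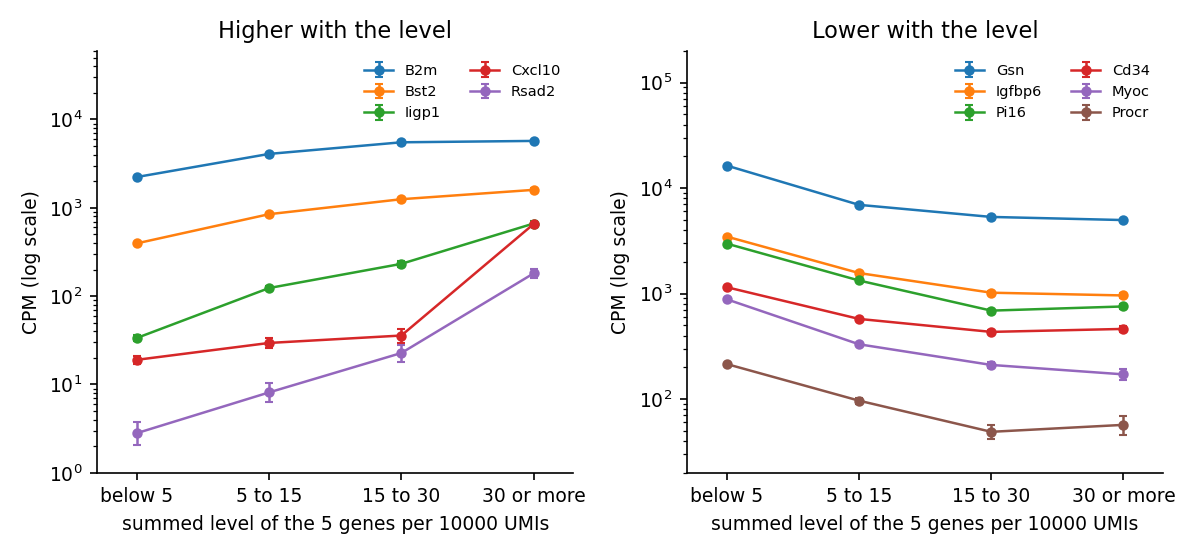
CPM on a log scale (y axis) of 5 higher genes (left) and 6 lower genes (right) in day 4 cells grouped by the summed level of the 5 rule genes per 10000 UMIs (x axis); error bars are Poisson 95% intervals. B2m differs little between the highest 2 bands, Cxcl10 and Rsad2 stand out in the highest band, where Cxcl10 reaches 655 CPM, and the genes on the right differ mostly between the first band and the second.

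Members led by Cxcl9 differed from the rest. In 44 members (8.22%) Cxcl9 had at least as many UMIs as the other 4 genes together, and 491 members remained. Between them, 53 of 3040 genes (1.74%) were at least 2-fold higher in the Cxcl9-led cells and 62 (2.04%) lower. Rule genes chose the split, with Ifit1 and Ifit3 4.21-fold and 3.74-fold lower in the led cells by that choice and Irf7 at 594 against 621 CPM. The led cells' median summed level was 31.7 per 10000, against 23.3 in the other members.

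The lists of interferon genes differed in direction across this split, which itself selects cells low in Ifit1 and Ifit3 beside Cxcl9. Of 63 effectors with at least 5 CPM, 53 were on the lower side in the Cxcl9-led cells and 10 on the higher, with 15 at least 2-fold lower and 1 at least 2-fold higher. Over all 9733 genes at that minimum, 48.3% were on the lower side and 51.7% on the higher, and 9.56% were at least 2-fold lower and 6.42% at least 2-fold higher. Usp18 had 42.1 CPM in led cells and 162 CPM in other members, 3.84-fold (2.42 to 6.52) lower and Rsad2 2.59-fold (1.498 to 4.92) lower. All 11 MHC class I genes with at least 5 CPM were on the higher side in the led cells, 2 of them at least 2-fold. H2-Q7 had 304 and 126 CPM, 2.40-fold (1.97 to 2.91) higher in led cells, and B2m had 8236 and 5343 CPM, a ratio of 1.54 (1.49 to 1.60). Of 13 GTPases with at least 5 CPM, 10 were on the higher side and 5 at least 2-fold higher, with Gbp2 at 332 and 147 CPM, 2.25-fold (1.87 to 2.70) higher, while Iigp1 had a ratio of 1.25 (1.07 to 1.45).

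Irf1 had 182 CPM in Cxcl9-led cells, against 57.1 CPM in other members and 53.2 CPM in the day 4 comparison cells, 3.19-fold (2.45 to 4.12) higher than in other members. Of 12 MHC class II and other interferon-gamma genes with at least 5 CPM, a level of few UMIs in 44 cells, 10 were on the higher side in led cells, 9 of them at least 2-fold. Cd74, the class II invariant chain, had 115 and 7.46 CPM, 15.4-fold (9.75 to 24.4) higher in led cells, but was in 6 of the 44, and 1 held 37 of the 49 UMIs. Serpina3g, a serine protease inhibitor, was 9.78-fold (7.05 to 13.5) higher, with 49 of its 74 UMIs in 1 cell. Of 16 chemokines with at least 5 CPM, 5 were at least 2-fold higher in led cells and 3 lower, of 13 NF-kB targets 4 were higher and 0 lower, and of 9 cytokines 1 was higher and 0 lower, with a median log2 ratio of -0.02. Ccl2, a monocyte chemokine, had 786 and 232 CPM, 3.39-fold (2.99 to 3.83) higher, with 94 of its 336 UMIs in 1 led cell. Cxcl1 was 3.14-fold (2.73 to 3.605) higher and Il6, an inflammatory cytokine, 2.96-fold (2.35 to 3.704). Il6 was in 20 of the 44 led cells and in 104 of the 491 others.

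Pi16 had 58.5 CPM in Cxcl9-led cells and 770 CPM in other members, 13.2-fold (8.91 to 20.4) lower, Myoc was 8.29-fold (4.62 to 16.7) lower and Clec3b, tetranectin, 3.46-fold (2.89 to 4.17) lower. Sfrp4, a secreted Wnt inhibitor, had 2 UMIs in led cells and 609 in the others, 27.8-fold (7.65 to 230) lower. Markers of other cells moved with the split in few cells. Gatm had 48 UMIs, all in 1 led cell, and 2 in other members, and the Schwann cell genes Mbp and Kcna1 had 22 and 6 UMIs, each in 1 led cell. Saa3 had 105 of 107 UMIs, and the macrophage gene Lyz2 29 of 35, in 1 led cell each. Mbp, Kcna1 and Lyz2 were named after their values were seen, and the part of these cells in the split was not tested.

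**Figure D5:**
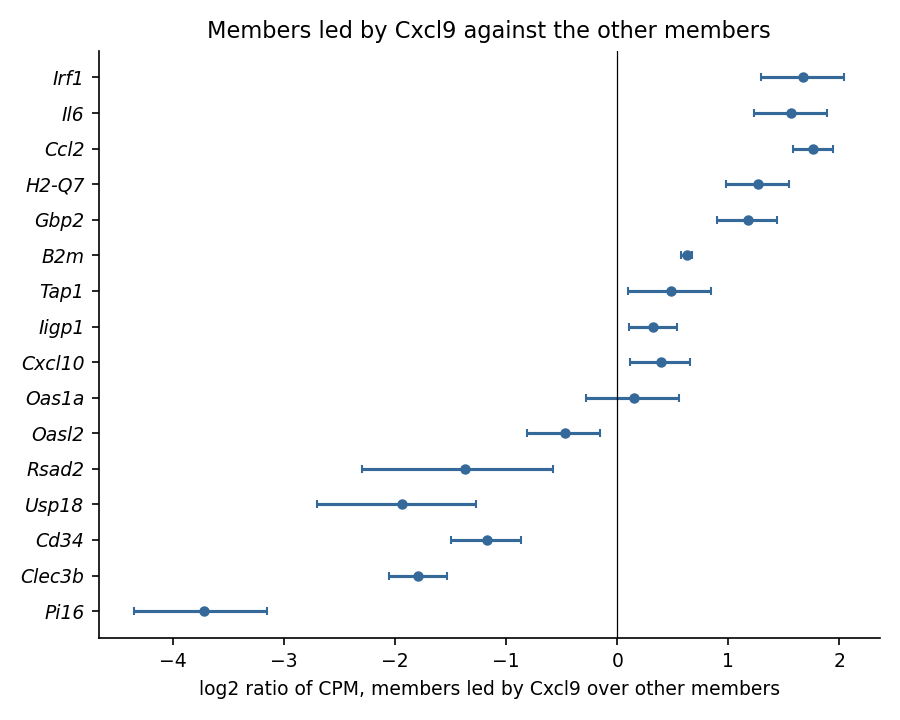
Log2 ratio of CPM in the 44 members led by Cxcl9 over the 491 other members (x axis) for 16 genes (y axis), with exact 95% counting intervals. Irf1, Il6, Ccl2, H2-Q7 and Gbp2 lie above 1, Rsad2 and Usp18 below -1, and Pi16 lies lowest.

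Markers of immune cells were near 0 apart from Mmp9, Lyz2 and Cd14. Ptprc, the pan-leukocyte marker CD45, had 1 UMI in members and 4 in comparison cells, and Cd3e, Cd3d, Cd3g, Nkg7, Flt3 and Siglech had 0 in both. Of the macrophage and monocyte list, 15 genes summed to 35.96 CPM in members and 19.9 CPM in comparison cells, with Adgre1 at 0 and 3 UMIs, and 12 lymphocyte and natural killer genes summed to 4.10 and 2.02 CPM. The 8 neutrophil genes summed to 38.1 and 12.8 CPM. Of these, Mmp9, a gelatinase, gave 185 of 195 UMIs in members, and Lyz2, lysozyme, gave 96 of 184 UMIs of the macrophage list. Cd14, of the same macrophage list, went the other way, with 3.32 CPM in members and 5.87 CPM in comparison cells. Cells were also counted by their immune marker UMIs, with Ctss and Cd14 left out and without thinning, although members were deeper. At least 2 such UMIs were found in 74 members (13.8%, 11.0 to 17.1) and 72 comparison cells (3.09%, 2.43 to 3.88). Without those cells, 91 genes were higher and 81 lower, 85 and 78 of them as before. The immune genes named here were chosen after their values were seen. The median doublet score was 0.0374 in members and 0.0312 in comparison cells.

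Excluded cell types met the threshold as well. Of the 115 mural cells of the day 4 library, 19 did (16.5%, 10.3 to 24.6), and of the 183 tenocyte cells 15 did (8.20%, 4.66 to 13.2). The mural interval includes the progenitors' 14.0%, and the tenocyte interval lies below it. Over their marker lists, 9 mural genes summed to 233 CPM in members and 134 CPM in comparison cells, and 8 tenocyte genes to 244 and 338 CPM.

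Most of the highest genes were also higher in the cells that met the rule in the other libraries. Their Bst2 level was 5.06-fold (3.66 to 6.83) that of cells below 5 per 10000 in the quiescent library, 4.49-fold (4.24 to 4.75) at day 1, 4.27-fold (3.74 to 4.86) at day 2 and 4.99-fold (4.21 to 5.88) at day 14, against 3.45-fold at day 4. Iigp1 ratios were 40.9 (26.4 to 62.2), 27.9 (23.7 to 32.8), 17.3 (13.8 to 21.5), 11.1 and 33.6 (24.9 to 45.0) in time order. B2m ratios were 1.27 (1.06 to 1.51), 1.82 (1.75 to 1.89), 1.85 (1.70 to 2.01), 2.50 and 1.44 (1.31 to 1.58), highest at day 4. The cells below 5 differ between libraries too, so a smaller ratio need not mean a lower level in the cells that met the rule. The median summed level of all kept cells was 3.02 per 10000 at day 4 and 0 in each other library. Its part in these ratios was not tested. Of the 25 genes with the highest day 4 ratios, 19, 24, 21 and 23 were at least 2-fold higher in the quiescent, day 1, day 2 and day 14 cells that met the rule, and 19 were so in all 5 libraries. Of all genes with at least 100 CPM in those libraries, 6.89, 4.79, 3.23 and 4.66% were at least 2-fold higher. All 25 genes were counted in each library. Their minimum of 100 CPM was set at day 4, while these shares set it within each library. Tmem176a, a transmembrane protein gene, was the one gene at less than 2-fold in each of the other 4 libraries.

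The lowest genes of day 4 were on that side in few of the other comparisons. Of the 12 with the lowest day 4 ratios, 1 was at least 2-fold lower in quiescent cells that met the rule and 0 at days 1, 2 and 14. Of all genes with at least 100 CPM, 4.32, 0.659, 1.2 and 1.55% were at least 2-fold lower in the quiescent, day 1, day 2 and day 14 libraries. All 12 genes were counted in each library, again with their minimum set at day 4. The ratio of Pi16 in cells that met the rule over cells below 5 was 1.23 (1.06 to 1.42) in the quiescent library, 2.40 (2.25 to 2.55) at day 1, 2.06 (1.86 to 2.27) at day 2, 0.239 (0.231 to 0.247) at day 4 and 1.498 (1.41 to 1.59) at day 14. Igfbp6 ratios were 1.18 (1.06 to 1.30), 2.02 (1.92 to 2.12), 2.11 (1.96 to 2.28), 0.288 (0.280 to 0.297) and 1.39 (1.32 to 1.47). Cxcl12 was higher in such cells at day 4 and on the lower side in the other libraries, with ratios of 0.750 (0.480 to 1.12), 0.749 (0.696 to 0.805), 0.595 (0.518 to 0.680), 1.84 and 0.506 (0.405 to 0.624). Timp1 ratios were 0.336 (0.00847 to 1.88), 0.826 (0.803 to 0.850), 0.866 (0.792 to 0.945), 2.51 and 1.30 (0.738 to 2.12). Cxcl9 stood at 70.1, 11.9, 51.0, 437 and 45.6 CPM in cells that met the rule, while Isg15 stood at 491, 1423, 827, 1047 and 1969.7 CPM. The quiescent values rest on 18 cells, those of day 2 on 30 and those of day 14 on 39, and the difference between libraries has no replicate.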

How the data were processed

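Polyadenylated RNA of sorted Hic1-lineage cells was counted in 5 libraries, 1 per time. For each barcode and gene the authors deposited a UMI count, made with Cell Ranger against mm10 per the submitters' processing notes; the version is not given in the sources used here. Library totals ran from 8043771 UMIs (quiescent) to 44552329 (day 1), and median UMIs per barcode from 3735.5 (quiescent) to 10739 (day 2). The 28001 features include 56 symbols on more than 1 row, of which the row with the highest total was used.

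The members, gene lists and comparisons were chosen with earlier results of these data known. UMIs were summed over the cells of each group, scaled to CPM (UMIs per 1000000) and compared as ratios with exact binomial 95% intervals, which cover counting error only. A gene was taken as higher or lower at a ratio of at least 2 with at least 50 CPM in the higher group. List medians use at least 5 CPM. A gene can reach either minimum in 1 group only, which favours the side of that group in the list counts. Since each time is 1 library, no test, SD or p-value was computed. The calculation was run on simulated Poisson counts of pooled groups, with no spread between cells. That checks the arithmetic only, not the intervals for genes whose UMIs lie in few cells. Named genes are the 25 highest and 12 lowest by log2((CPM + 1)/(CPM + 1)) with at least 100 CPM in the higher group, without ribosomal, mitochondrial, haemoglobin and predicted genes, and up to 6 of each list with the largest change and at least 20 CPM. Interferon ligands and receptors, signalling factors and lineage markers were always named, as were the 8 highest and 8 lowest genes of the Cxcl9-led cells. Exceptions are marked in the text. Not every gene chosen this way is reported here. Doublets were scored with Scrublet, whose threshold marked 3 cells and so did not work; none were removed in the values reported. Coordinates are GRCm38 (GENCODE M21), and promoters are from RefSeq. Python 3.11.15, numpy 2.4.6, scipy 1.17.1, scanpy 1.11.5, pandas 2.3.3, R 4.3.3, edgeR 4.0.16 and DESeq2 1.42.0 were used, the last 2 only for scaling factors. Alternatives covered the threshold, the scaling, the comparison cells, the exclusions and the minimum level.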

Additional observations from a re-analysis of the deposited data

How the results depend on the processing

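The share of members among kept day 4 cells, 14.0%, was 22.3% with a threshold of 10 per 10000, 9.32% with 20, 17.0% after thinning, 12.1% with Cxcl9 left out of the sum, 12.8% without cells holding at least 2 immune UMIs and 12.7% without cells holding at least 2 G2/M UMIs. With a threshold of 10 the shares of the quiescent, day 1 and day 14 libraries were 1.63, 4.81 and 2.56%, and with 20 those of the quiescent, day 1 and day 2 libraries were 0.474, 2.03 and 0.665%. The count of 89 higher genes was 152 at a minimum of 20 CPM, 55 at 100 CPM and 1822 with no minimum. The count of 79 lower genes was 148 at 20 CPM, 2961 with no minimum, 52 against all non-members, 35 with comparison cells weighted to the members' UMI deciles and, as an alternative chosen after seeing the data, 10 with cells weighted to the members' Pi16 tertiles. With no minimum most genes rest on few UMIs. TMM and DESeq2 scaling gave 84 higher and 82 lower genes, and moved the median log2 ratio of all genes by -0.04. The log2 ratio of Birc5 was -0.25 without cells holding G2/M UMIs, that of Il18 was 0.15 with the Pi16 tertiles, and the median of the mural marker list was -0.033 without the exclusion of tenocyte and mural cells; the cause was not tested. Over 173 named genes and 17 settings, 2116 of 2941 values moved by less than the counting error. A sign change occurred in 48 values of 27 genes, of which 2 were among the 73 genes past 2-fold, and 57 genes moved by over 1.5-fold in at least 1 setting. No paired analysis was possible because each group is 1 library. The spread between animals is not known for any value, and low genes are limited by the members' 5117461 UMIs.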
